A study of Macaca mulatta with 9 samples.

Results

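The ubiquitin-proteasome genes described here are those of the array annotation whose symbol is PSMA, PSMB, PSMC, PSMD, PSME, PSMF or PSMG followed by a digit, or UBE2 followed by a letter. They numbered 56 of the 14132 genes that a probe set names with 1 symbol. Of these, 32 were proteasome genes and 24 were UBE2 genes, and each was read from the brightest of its probe sets by mean intensity over the 9 arrays. The 56 genes had 118 probe sets in all, 19 genes having 1 and 37 having several. The current RefSeq gene table holds 83 protein-coding symbols of this form, and 27 of them, among them PSMB9, PSME1, UBE2A and UBE2C, were not analysed here.

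Ubiquitin is a small protein that cells attach to other proteins in a relay of E1, E2 and E3 enzymes. The UBE2 genes encode E2 enzymes, which carry activated ubiquitin, or a relative of it, to the substrate with the help of an E3. Chains of ubiquitin send proteins to the 26S proteasome, a barrel-shaped 20S core of alpha and beta rings that is capped by the 19S regulatory particle. In the ovary this route is best known for removing cyclin B and securin during the meiotic divisions of the oocyte, and it also clears damaged protein in every cell type.

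Ovarian RNA of 9 female rhesus monkeys was measured on 9 Affymetrix rhesus genome arrays, with 1 monkey and 1 half-ovary per array. Each age had 3 monkeys, of 3 to 4 years in the young, 7 to 8 years in the middle-aged and 18 to 19 years in the old group. Young monkeys cycled normally and had never bred, middle-aged monkeys had good reproductive capacity, and old monkeys had lost it. Ovaries of the young and middle-aged groups were taken near proestrus, and for the old group no stage is stated, so that age and cycle stage cannot be told apart. The labels name no treatment or genetic change in any group.

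Intensities are linear values between 3.14 and 26458 in arbitrary units, and a change is given as the difference of log2 means. Comparisons across age were made with limma over 52766 probe sets, and calls required both a p under 0.05 after Benjamini-Hochberg adjustment and a 1.5-fold difference. The ovarian label was checked with STAR, a gene of steroid-producing cells, which had 2089.7, 975 and 646 in young ovaries, 2740.4, 2942 and 663 in middle-aged ovaries, and 21679, 12233 and 3448 in old ovaries. ZP3, an egg coat gene, was measured at 582, 1742 and 2835 in young ovaries, 377, 443 and 1379 in middle-aged ovaries, and 52.4, 46.3 and 49.4 in old ovaries. Of 15 oocyte markers, 5 were called lower in old than in young ovaries, and of 10 dividing-cell markers 1 was. Over all 14132 genes, 4 were called higher and 39 lower in old than in young ovaries. Labelling control RNAs were bright for old monkey 3 and young monkey 3, by 0.77 and 0.62 in log2 units relative to the average array. The array of old monkey 1 held the highest value of the 9 for 20% of all genes and the lowest for 21.2%, larger shares than any other array.

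None of the 56 genes was called in any comparison. Between old and young ovaries the called share was 0.0283% of all genes for higher values and 0.276% for lower values, so that 0 of 56 is near the background. The median log2 fold change of the 56 genes was -0.05, against 0.00 over all genes. At an unadjusted p under 0.05 from limma, 3 members were higher and 7 lower in old than in young ovaries. These 3 were UBE2F, UBE2J1 and PSMB10, and the 7 were UBE2T, UBE2K, UBE2N, UBE2S, PSMG1, UBE2O and PSMD11. The same level was passed by 6.8% of all genes in the higher and 12% in the lower direction, and 3 and 7 of 56 lie near those shares. Old values lay wholly above the young ones for 3 members (5.36%), UBE2F, UBE2J1 and PSME3, and wholly below for 7 (12.5%), against 7.8% and 13.8% of all genes. Single arrays moved these counts. Without old monkey 3, 5 members were higher and 3 lower at an unadjusted p under 0.05, and 9 lay wholly above. Without young monkey 2 the counts were 0 higher and 4 lower, and without young monkey 1 or old monkey 1 1 member was higher. Members wholly below the young ones were then 11 without young monkey 1 and 18 without old monkey 1, and 8 lay wholly above without young monkey 3. Leaving out an array makes separation of groups easier by construction. Shares over all genes were not computed with an array left out, so these counts have no background beside them. SAM, a permutation-based test, also called 0 members in each of the 4 comparisons. Over the whole array it made 368 calls for old against young and 48 for old against middle-aged. It made 1 for middle-aged against young and 352 for old against the other 6. With so few calls over the whole array, 0 of 56 members says little about these genes.

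Most estimates were small. The fold estimate between old and young ovaries was under 1.5 in either direction for 49 of the 56 members (87.5%), against 81.4% of all genes. A 95% interval that lay wholly within 1.5-fold was reached by 23 members (41.1%), against 40.1% of all genes and 28.1% of genes with a mean intensity of at least 100. For those 23 a change of 1.5-fold or more lies outside the interval, whereas for the other 33 a change of that size lies inside the interval. Without young monkey 3 the intervals within 1.5-fold numbered 13.

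**Figure D1:**
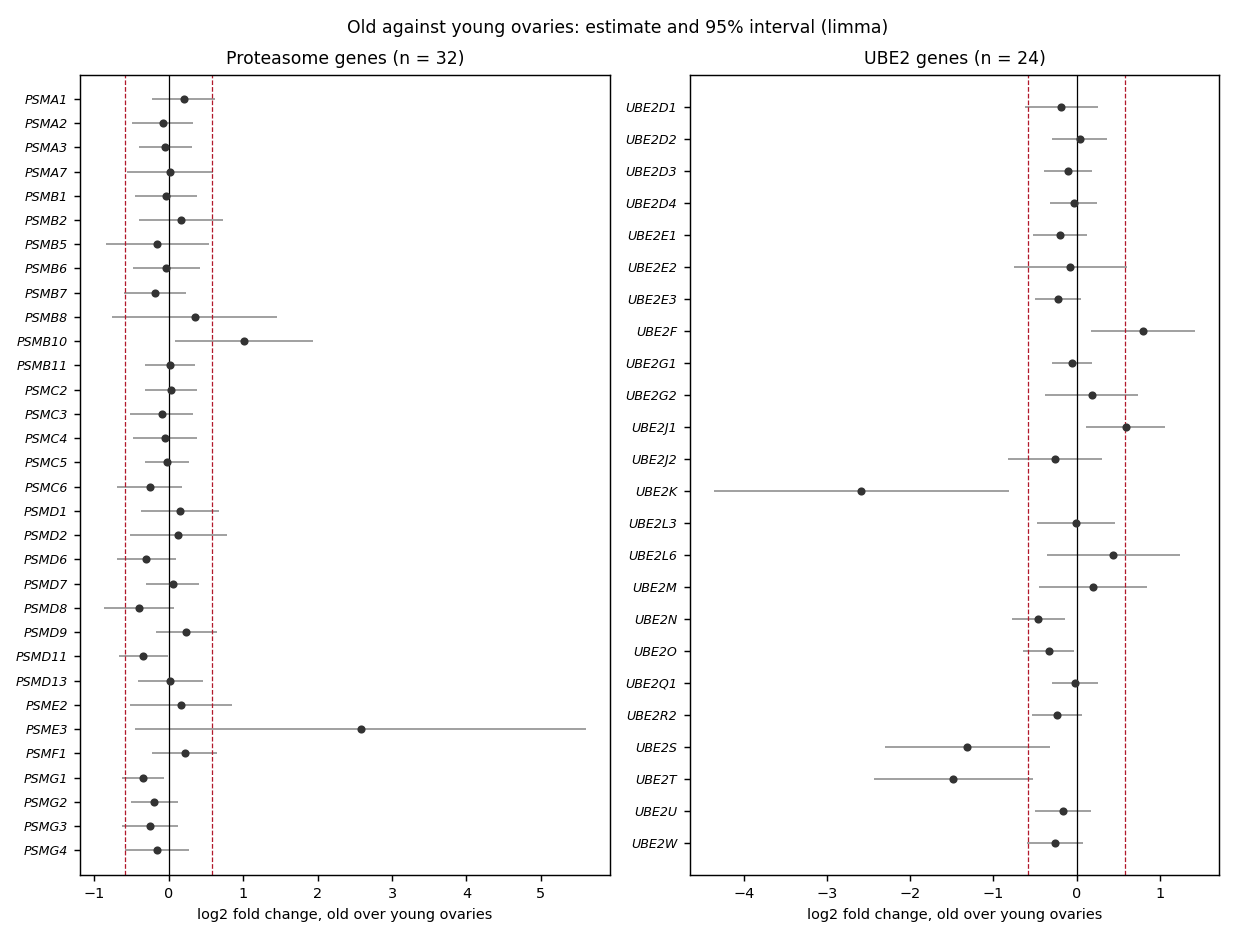
Log2 fold change of old over young ovaries on the horizontal axis for the 32 proteasome genes and the 24 UBE2 genes, with points for the limma estimate, bars for its 95% interval and dashed red lines at 1.5-fold in either direction. Most points lie close to 0, and the widest departures are PSME3 at 2.58, UBE2K at -2.59, UBE2T at -1.48 and UBE2S at -1.31, none of which passed the adjusted threshold.

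Estimates for the core particle were small. The 4 measured genes of the alpha ring, which gates entry of substrates, had log2 fold changes between -0.08 and 0.20 in old against young ovaries. PSMA7, the brightest member, had intensities of 4164, 8337 and 7182 in young ovaries, 6238, 7373 and 6239 in middle-aged ovaries, and 7279, 6809.7 and 5256 in old ovaries. The lowest of these values was that of young monkey 1 and the others overlapped across all 3 groups. PSMA1 had 677, 699.7 and 748 in young ovaries, 849, 906 and 752 in middle-aged ovaries, and 1069, 798 and 632 in old ovaries. Its log2 fold change was 0.20 for old against young (95% interval -0.22 to 0.62), and each middle-aged value lay above each young value. For PSMA2 and PSMA3 the estimates were -0.08 and -0.04 in the same comparison.

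The 5 constitutive beta genes, which include the 3 catalytic subunits, lay between -0.19 and 0.16. PSMB5, the chymotrypsin-like subunit, had intensities of 1614, 1872 and 1272 in young ovaries, 1564, 1485 and 1029 in middle-aged ovaries, and 2158, 1349.9 and 969 in old ovaries. PSMB6, the caspase-like subunit, had 1800.3, 1860.0 and 1679 in young ovaries, 1657, 1750.5 and 1143 in middle-aged ovaries, and 2139.6, 1705 and 1449 in old ovaries. PSMB7, the trypsin-like subunit, had 3072, 3726 and 2849 in young ovaries, 3476, 2902 and 2737 in middle-aged ovaries, and 3541, 2649 and 2358 in old ovaries. For each of these 3 genes old monkey 1 was well above old monkeys 2 and 3, and the old range covered most of the young range. Their log2 fold changes of old over young were -0.15 (95% interval -0.84 to 0.54), -0.03 (95% interval -0.48 to 0.42) and -0.19 (95% interval -0.60 to 0.23). The structural beta subunits PSMB1 and PSMB2 had -0.04 and 0.16.

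Interferon induces alternative catalytic subunits that replace the constitutive ones in the immunoproteasome, PSMB8 in place of PSMB5 and PSMB10 in place of PSMB7. PSMB10 had the highest estimate of the beta genes. Its intensities were 201, 219 and 348 in young ovaries, 179, 315 and 181 in middle-aged ovaries, and 875, 471 and 306 in old ovaries. Old monkeys 1 and 2 exceeded all 6 other arrays, while old monkey 3 lay below young monkey 3 and middle-aged monkey 2. The log2 fold change was 1.02 against young (95% interval 0.09 to 1.94, adjusted p = 0.329), 1.21 against middle-aged (adjusted p = 0.538) and 1.11 against the other 6 (adjusted p = 0.24). Without old monkey 1 the estimate against young was 0.61. Its other probe set gave 0.62 in the same comparison with all arrays. A brighter probe set annotated to both PSMB10 and BEX4, with a mean intensity of 1585, gave 0.04.

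PSMB8 had 200.3, 135 and 364 in young ovaries, 213, 386 and 197 in middle-aged ovaries, and 433, 148 and 317 in old ovaries. Its values overlapped in all groups, and the log2 fold change against young was 0.35 (95% interval -0.76 to 1.46). The log2 ratio of PSMB10 to PSMB7, centred on its mean over the 9 arrays, was 1.31, 0.83 and 0.38 in old monkeys 1, 2 and 3, and between -0.96 and 0.29 in the 6 others. That of PSMB8 to PSMB5 was 0.23, -0.64 and 0.94 in the old monkeys and between -1.25 and 0.74 in the others. The old values of the PSMB10 ratio thus lay above the rest and those of the PSMB8 ratio were interleaved with them. The difference of log2 means between old ovaries and the other 6 was 1.26 for the PSMB10 ratio (exact two-sided permutation p = 0.0119, the smallest that 84 choices of 3 arrays can give; adjusted over the 2 ratios 0.0238) and 0.26 for the PSMB8 ratio (exact two-sided permutation p = 0.619). The ratios were formed after the values of PSMB10 had been seen, so the p-values are not independent evidence, and the difference between the 2 ratios was not tested. Without old monkey 1 the difference of the PSMB10 ratio was 1.03 (exact permutation, adjusted p = 0.0714), and without old monkey 3 it was 1.49 (exact permutation, adjusted p = 0.0714). PSMB11, the thymus-specific subunit, was between 9.26 and 12.8 on every array.

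The immunoproteasome shapes the peptides that class I molecules display. Other genes of class I antigen presentation had a median estimate of 0.40 on the log2 scale in old against young ovaries, over 8 of 9 genes measured. None was called, while 2 were higher and 1 lower at an unadjusted p under 0.05, a level that 6.8% of all genes passed in the higher and 12% in the lower direction. NLRC5, the activator of class I transcription, had 58.6, 36.4 and 69.0 in young ovaries, 57.1, 98.8 and 60.5 in middle-aged ovaries, and 321, 94.9 and 128 in old ovaries. Old monkeys 1 and 3 exceeded the other 6 arrays and old monkey 2 did not (log2 fold change 1.57, adjusted p = 0.207). For TAP2, a subunit of the peptide transporter, the log2 fold change was 0.89 (adjusted p = 0.288), and for ERAP2, a peptide-trimming protease, it was -0.98 (adjusted p = 0.159). The summed intensity of 12 interferon response genes ran from 2706 to 3105 in young, from 2968 to 6216 in middle-aged and from 3682 to 5173 in old ovaries. That of 7 leukocyte markers ran from 983 to 1237 in young, from 638 to 1449 in middle-aged and from 936 to 1215 in old ovaries. The lowest single value was 14.07 in the interferon list and 7.16 in the leukocyte list. Their part in the PSMB10 values was not tested.

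The 19S regulatory particle recognises and unfolds tagged proteins. Its 5 measured ATPases, which form the unfolding ring, lay between -0.25 and 0.04 on the log2 scale between old and young ovaries, and 4 of the 5 intervals lay within 1.5-fold. The lowest was PSMC6, with intensities of 352, 410.3 and 368 in young ovaries, 342, 361 and 371 in middle-aged ovaries, and 427, 304 and 243 in old ovaries. Old monkey 1 had the highest value of all 9 arrays and old monkey 3 the lowest, so the groups overlapped (log2 fold change -0.25, 95% interval -0.69 to 0.19). PSMC2, PSMC3, PSMC4 and PSMC5 had 0.04, -0.09, -0.05 and -0.02.

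Among the 7 non-ATPase subunits the log2 fold changes ran from -0.39 to 0.15. PSMD8, a subunit of the lid, was the lowest, with 875, 748 and 659 in young ovaries, 617, 585 and 537 in middle-aged ovaries, and 793, 512 and 469 in old ovaries. Young monkey 1 was highest, and old monkey 1 exceeded both other young monkeys (log2 fold change -0.39, 95% interval -0.86 to 0.07). PSMD2, a scaffold of the base that binds ubiquitin receptors, had 535, 610.3 and 514 in young ovaries, 505, 512 and 374 in middle-aged ovaries, and 909, 625 and 389 in old ovaries. Its old values held both the highest of the 9 and the second lowest, and its middle-aged values all lay below the young ones. PSMD11, a lid subunit, had a log2 fold change of -0.34 (95% interval -0.67 to -0.01, adjusted p = 0.355), and its other probe set had -0.46. PSMD1, PSMD6, PSMD7 and PSMD13 had 0.15, -0.30, 0.05 and 0.03.

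Dedicated chaperones assemble the particle and leave it when it is complete. PSMG1, part of a dimer that builds the alpha ring, had intensities of 1313, 1387 and 1512 in young ovaries, 1272, 1191 and 1508 in middle-aged ovaries, and 1085, 1196 and 1043 in old ovaries. Every old value lay below every young value, by a small margin (log2 fold change -0.34, 95% interval -0.62 to -0.06, adjusted p = 0.291). Its partner PSMG2 had -0.19, PSMG3 had -0.25 with non-overlapping groups, and PSMG4 had -0.15. PSMG4 ranged over 219, 268 and 246 in young ovaries, 231, 207 and 191 in middle-aged ovaries, and 284, 218 and 169 in old ovaries, where the groups overlapped. PSMD9, a chaperone of the ATPase ring, had 542, 515 and 628 in young ovaries, 516, 609 and 508 in middle-aged ovaries, and 861, 572 and 585 in old ovaries. Old monkey 1 was far above the other 8 arrays and old monkeys 2 and 3 were within their range (log2 fold change 0.24, 95% interval -0.17 to 0.64).

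Activators open the core particle without the 19S cap. PSME2, an interferon-inducible activator subunit, had 658, 897 and 1118 in young ovaries, 722, 1206 and 619 in middle-aged ovaries, and 1278, 795 and 916 in old ovaries, with overlap of all groups and a log2 fold change of 0.17 (95% interval -0.52 to 0.85). PSMF1, an inhibitor of the core particle, had 138, 141 and 173 in young ovaries, 163, 154 and 175 in middle-aged ovaries, and 235, 155 and 144 in old ovaries, and old monkeys 2 and 3 lay among the others (log2 fold change 0.22, 95% interval -0.22 to 0.65). PSME3, the nuclear activator, had 13.1, 13.6 and 15.7 in young ovaries, 20.5, 20.8 and 16.1 in middle-aged ovaries, and 1175, 19.2 and 26.5 in old ovaries. A single array, that of old monkey 1, was bright, and the other 8 were dim. The log2 fold change of 2.58 (95% interval -0.45 to 5.60, adjusted p = 0.441) was 0.68 without that array. The other PSME3 probe sets gave 0.07 and -0.19 and showed no such array. The first of these, with a mean intensity of 48.7, is the brighter one by mean log2 value, and PSME3 was the only one of the 56 genes for which the scale of the mean decided the choice.

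**Figure D2:**
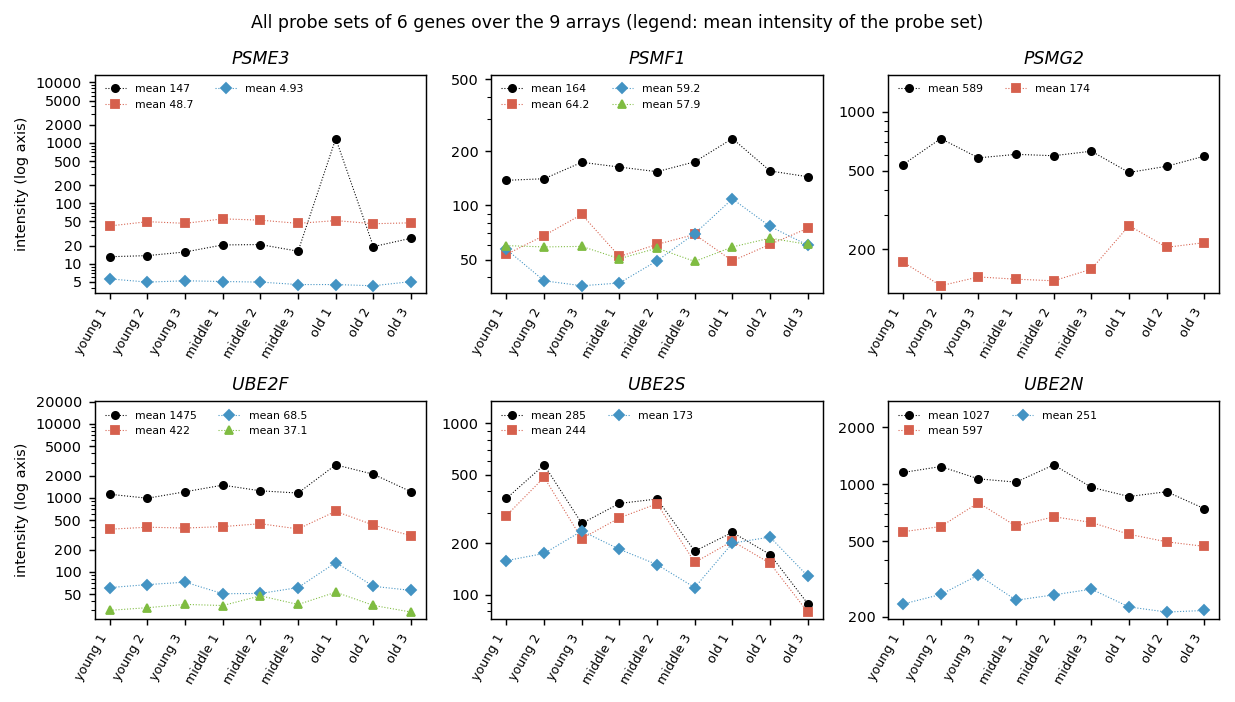
Intensity on a log axis of every probe set of PSME3, PSMF1, PSMG2, UBE2F, UBE2S and UBE2N across the 9 arrays, young to old. The brightest PSME3 probe set stands out on old monkey 1 alone, the PSMG2 probe sets lie on opposite sides of 0 (-0.19 and 0.61 for old against young on the log2 scale), and those of UBE2N gave -0.46, -0.36 and -0.33.

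The proteasome genes were spread widely among the old ovaries. Old monkey 1 held the highest value of the 9 arrays for 22 of the 32 proteasome genes (68.8%), against 20% of all genes. Old monkey 3 held the lowest value for 14 of the 32 (43.8%), against 17.1% of all genes. Relative to its own 9-array mean, the median proteasome gene stood at 0.33 in old monkey 1, -0.09 in old monkey 2 and -0.27 in old monkey 3 on the log2 scale. The median of all genes lay between -0.04 and 0.01 on every array. That of genes with a mean intensity of at least 100 lay between -0.10, on old monkey 3, and 0.03. The proteasome medians of the 6 other arrays lay between -0.21 and 0.08. Old monkey 1 was thus above all other arrays and old monkey 3 below them, by 0.60 between these medians and by 0.36 when the probe sets of a gene were averaged. The shift of old monkey 1 was seen in the alpha ring (0.29), the constitutive beta ring (0.36), the ATPases (0.29) and the non-ATPase subunits (0.33), and was smaller in the chaperones (0.05). Among proteasome roles, the 3 inducible or tissue-specific beta genes (0.82) and the 3 activators and inhibitor (0.53) had the largest medians there. UBE2 role medians on that array ran from -0.38 for E2 enzymes of the DNA damage response to 0.84 for those of ubiquitin-like proteins.

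The median SD of log2 values of the proteasome genes was 0.17 among young, 0.16 among middle-aged and 0.32 among old monkeys. For UBE2 genes these medians were 0.16, 0.15 and 0.24, and for all genes 0.19, 0.19 and 0.25, in the same order of ages. Over the 9 arrays together the median SD was 0.23 for proteasome genes and 0.27 for all genes. It was 0.31 for genes with a mean intensity of at least 100. The labelling controls were high on old monkey 3 and, at -0.29, low on old monkey 1. Young monkey 3 also had high controls and its median proteasome gene stood at 0.02, and middle-aged monkey 1 had lower controls, at -0.40, with a median of -0.03. Markers of other ovarian cells also differed among the old monkeys. The summed intensity of 8 of 10 granulosa markers was 11039.6, 3063.3 and 1401.4 in old monkeys 1, 2 and 3, and ran from 943.0 to 7897.5 in middle-aged and from 1359.4 to 11150.8 in young ovaries. That of 4 of 7 theca and steroid cell markers was 24136.6, 15458.1 and 5944.6 in the old monkeys, and ran from 1019.0 to 5135.1 in middle-aged and from 1007.5 to 3896.9 in young ovaries. Both sums thus had the order of the proteasome medians among the old monkeys. So had the sums of oocyte (1767.5, 614.3 and 604.7) and dividing-cell markers (1193.6, 695.7 and 496.2). Those of stromal fibroblast (12503.1, 19688.4 and 25074.2) and surface epithelium markers (2156.5, 3235.6 and 5033.3) had the reverse order. A sum follows its brightest genes, and the granulosa markers disagreed. In old against young ovaries 3 had positive and 5 negative estimates, from -3.88 to 2.67. Their centred log2 median was 0.86, -1.52 and -1.49 in old monkeys 1, 2 and 3, and 2.33 in young monkey 2. In old monkeys 1, 2 and 3 such medians were 1.22, 0.10 and 0.23 for theca and steroid cell markers. They were -0.96, -1.31 and -1.17 for oocyte and -0.39, 0.02 and -0.14 for stromal fibroblast markers. None of these lists, granulosa included, kept the full order of its sums. Medians of dividing-cell (-0.66, -1.54 and -1.95) and surface epithelium markers (-0.47, -0.08 and -0.004) kept it. The 4 of 7 measured smooth muscle and pericyte markers summed to 7087.9, 5982.5 and 19215.6 in the old monkeys, highest in old monkey 3, and ran from 6729.4 to 13543.4 in middle-aged and from 4357.2 to 5462.4 in young ovaries. The lowest single value was 5.95 for granulosa, 25.99 for theca and steroid cell and 82.44 for smooth muscle and pericyte markers. The granulosa sum of young monkey 2, 11150.8, was the highest of the 9 arrays, and its median proteasome gene stood at 0.08. Middle-aged monkey 3 had the lowest granulosa sum and a median of -0.21. The part of labelling and of these cell populations in the spread of the old arrays was not tested. These values describe 3 monkeys, were examined after the data had been seen, and carry no test.

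**Figure D3:**
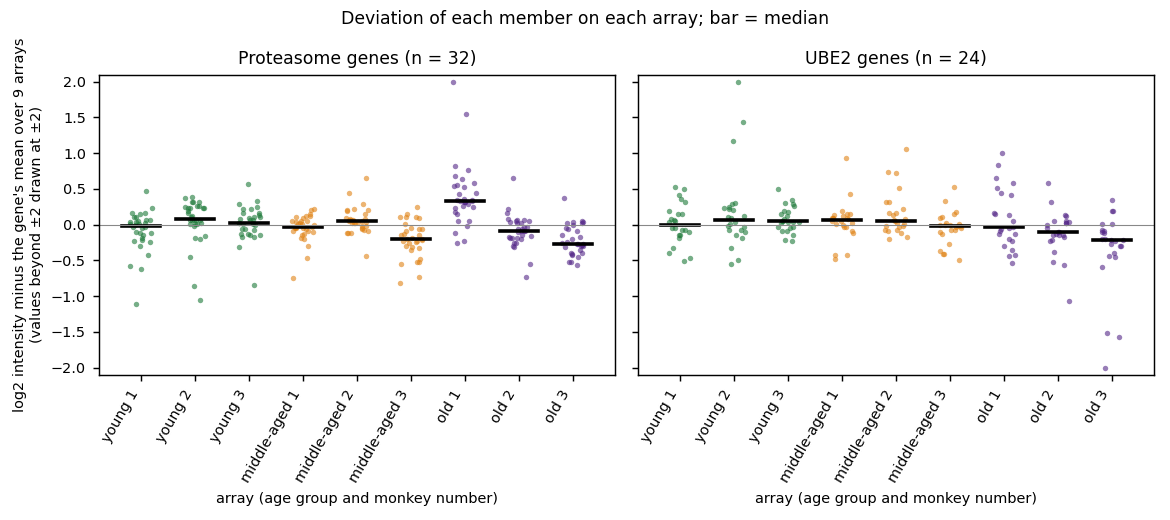
Log2 intensity of each gene minus its mean over 9 arrays, by array from young to old, for 32 proteasome genes and 24 UBE2 genes, with points for genes, black bars for medians and values beyond 2 drawn at 2. The proteasome median is 0.33 on the array of old monkey 1 and -0.27 on that of old monkey 3, and the UBE2 medians run from -0.21 to 0.07.

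At an unadjusted p under 0.05, 5 of the 24 UBE2 genes were lower in old than in young ovaries and 2 were higher, beside 12% and 6.8% of all genes. UBE2S, an E2 that extends ubiquitin chains for the anaphase-promoting complex, had 364, 571 and 260.1 in young ovaries, 340.2, 361 and 179 in middle-aged ovaries, and 231, 171 and 88.7 in old ovaries. Every old value lay below every young value, and old monkey 1 exceeded middle-aged monkey 3 (log2 fold change -1.31 against young, 95% interval -2.31 to -0.32, adjusted p = 0.253). Another probe set gave -1.19, and the dimmest one gave -0.07. UBE2T, the E2 of the Fanconi anaemia DNA repair pathway, had 61.7, 134 and 51.4 in young ovaries, 52.4, 82.4 and 49.4 in middle-aged ovaries, and 34.1, 34.4 and 16.7 in old ovaries. All 3 old values were below all 6 others, and young monkey 2 was the highest (log2 fold change -1.48, 95% interval -2.44 to -0.52, adjusted p = 0.203).

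Both genes had their highest and lowest arrays in common with the dividing-cell markers. All 10 measured markers of dividing cells had negative estimates in old against young ovaries (median log2 fold change -2.63), and 9 were lower at an unadjusted p under 0.05. Their summed intensity ran from 2334 to 8534 in young, from 1518 to 4719 in middle-aged and from 496 to 1194 in old ovaries. Their lowest single value was 15.82. Centred on the mean of 9 arrays, the marker median was highest on young monkey 2 (2.02) and lowest on old monkey 3 (-1.95). The 15 oocyte markers summed to between 2622 and 7738 in young, 1604 and 5691 in middle-aged and 605 and 1768 in old ovaries. The part of either cell population in the UBE2S and UBE2T values was not tested, and in RNA of whole half-ovaries fewer cells of a type and less RNA per cell cannot be told apart.

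UBE2K, an E2 that builds ubiquitin chains for degradation, had the lowest estimate of all members. Its only probe set read 107, 331 and 93.9 in young ovaries, 144, 159 and 71.7 in middle-aged ovaries, and 56.5, 36.1 and 7.51 in old ovaries. All 3 old values lay below the 6 others, and that of old monkey 3 lay under the lower quartile of its array, 9.42. The log2 fold change was -2.59 against young (95% interval -4.36 to -0.82, adjusted p = 0.219) and -2.25 against middle-aged (adjusted p = 0.556). Without old monkey 3 the estimate against young was -1.73, and without old monkey 1 it was -3.18.

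UBE2N, which builds the chains that signal DNA damage rather than degradation, had 1155, 1241 and 1068 in young ovaries, 1027, 1267 and 964 in middle-aged ovaries, and 862, 914 and 743 in old ovaries. The highest old value, in old monkey 2, was below the lowest of the other 6, in middle-aged monkey 3 (log2 fold change -0.46 against young, 95% interval -0.78 to -0.14, adjusted p = 0.222). Its 3 probe sets gave -0.46, -0.36 and -0.33. UBE2O, a large enzyme with combined E2 and E3 activity, had 105, 110.0 and 104 in young ovaries, 105, 89.2 and 95.5 in middle-aged ovaries, and 87.3, 97.0 and 70.6 in old ovaries. Old and young values did not overlap (log2 fold change -0.34, adjusted p = 0.335), but its dimmer probe sets gave 0.27 and 0.29.

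On the higher side, UBE2F, an E2 for the ubiquitin relative NEDD8, had 1117, 987 and 1207 in young ovaries, 1483, 1243 and 1161 in middle-aged ovaries, and 2789, 2083 and 1208 in old ovaries. Old monkeys 1 and 2 were above all other arrays, and old monkey 3, at 1208, was barely above young monkey 3, at 1207 (log2 fold change 0.80, 95% interval 0.17 to 1.43, adjusted p = 0.272). Without old monkey 1 the estimate was 0.53, and its other probe sets gave 0.18 to 0.23. A probe set annotated to both UBE2F and LOC697992, with a mean intensity of 325, gave 0.04. UBE2J1, an enzyme of the endoplasmic reticulum membrane that serves the disposal of misfolded proteins, had 139, 146 and 166 in young ovaries, 136, 228 and 197 in middle-aged ovaries, and 274, 201 and 209 in old ovaries. Old values exceeded all young values and overlapped with middle-aged ones (log2 fold change 0.59, 95% interval 0.12 to 1.06, adjusted p = 0.278). All 5 probe sets gave positive values, from 0.26 to 0.68. UBE2L6, the interferon-induced E2 of ISG15, had 480.4, 465 and 780.2 in young ovaries, 511, 1125 and 732 in middle-aged ovaries, and 972, 521 and 865 in old ovaries, with wide overlap and a log2 fold change of 0.44 (95% interval -0.36 to 1.24).

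**Figure D4:**
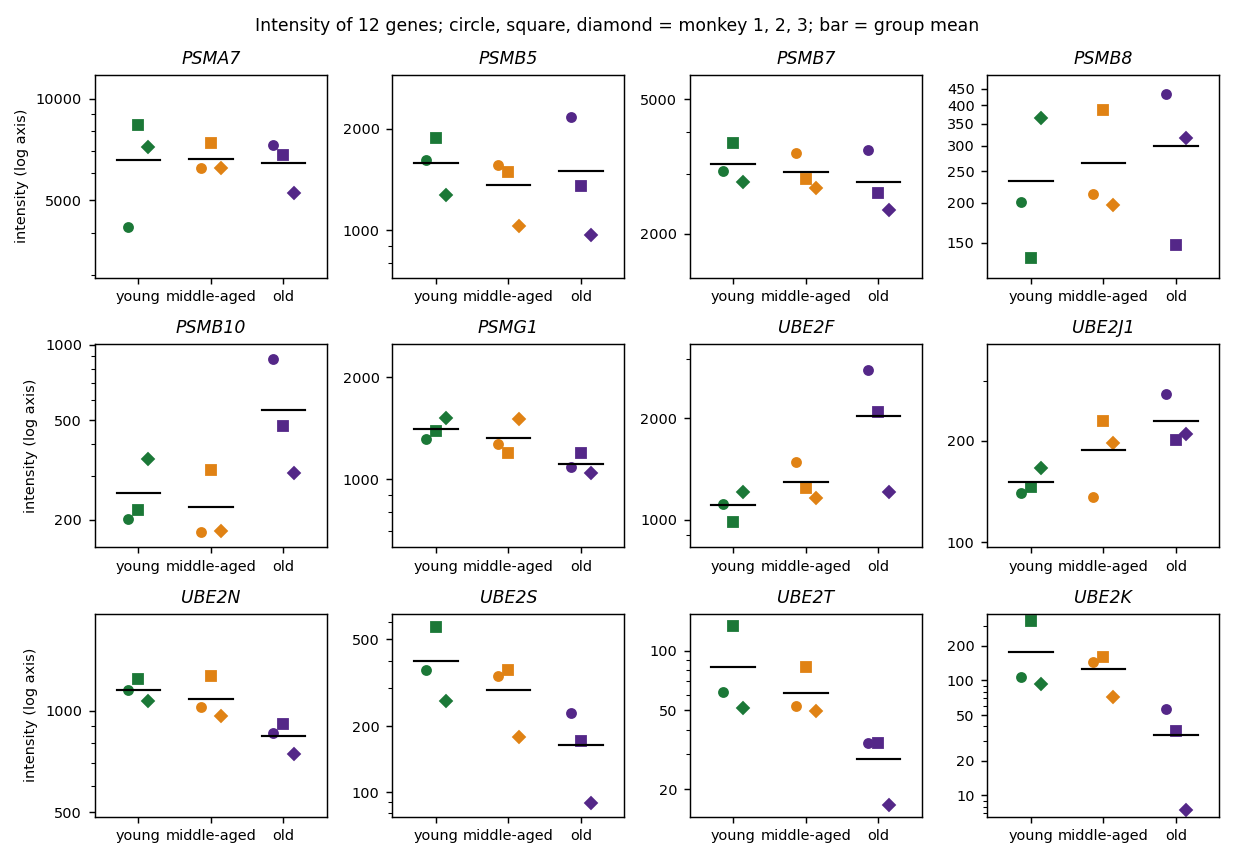
Intensity on a log axis of 12 genes in young, middle-aged and old ovaries, with 1 symbol per monkey and a bar at the group mean. Old values of UBE2N, UBE2T and UBE2K lie below all others, those of UBE2F and PSMB10 spread upward from the young range, and PSMA7, PSMB5 and PSMB7 overlap across ages.

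The E2 enzymes of broad use, which serve many E3 ligases, were near level. The 9 genes of the UBE2D and UBE2E families and their near relatives had log2 fold changes between -0.26 and 0.04 in old against young ovaries. UBE2E1 had 1724, 1972 and 1908 in young ovaries, 1925, 2084 and 2335 in middle-aged ovaries, and 1375, 1685 and 1861 in old ovaries, and UBE2E3 had 1054, 928 and 1120.0 in young ovaries, 1096, 1163 and 978 in middle-aged ovaries, and 932, 922 and 807 in old ovaries. In both, each old value lay below each middle-aged one (log2 fold changes against middle-aged -0.37, adjusted p = 0.586, and -0.28, adjusted p = 0.629). UBE2E2 had 323, 480.4 and 624 in young ovaries, 318, 409 and 637 in middle-aged ovaries, and 493, 406 and 415 in old ovaries. It varied within each group and overlapped between all of them. UBE2D1 had 175, 139 and 142 in young ovaries, 145, 133 and 103 in middle-aged ovaries, and 118, 169.8 and 117 in old ovaries, again with overlap.

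UBE2D2 had 858, 856 and 853 in young ovaries, 934, 996 and 1028 in middle-aged ovaries, and 705, 934 and 1031 in old ovaries, and its middle-aged values all exceeded the young ones. UBE2W, which attaches ubiquitin to the amino terminus of proteins, had 211, 259 and 278 in young ovaries, 205, 208 and 200.3 in middle-aged ovaries, and 246, 187 and 190.3 in old ovaries. Its middle-aged values were below all young values, and the old range overlapped with both. UBE2D3, UBE2D4 and UBE2L3 had -0.10, -0.03 and -0.01 on the log2 scale in old against young ovaries. The remaining E2 genes UBE2G1, UBE2G2, UBE2J2, UBE2M, UBE2Q1, UBE2R2 and UBE2U had -0.05, 0.18, -0.26, 0.20, -0.02, -0.24 and -0.16, and UBE2U stayed below 7 on every array.

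Probe sets of 1 gene often differed. Of the 37 members with several, 19 had the same sign in all of them between old and young ovaries. PSMA2 had 5, all negative, from -0.59 to -0.08, of which the brightest was nearest to 0. PSMF1 had 4 between -0.18 and 0.89. For UBE2N and UBE2J1 the direction did not depend on the probe set, and for UBE2O, PSMG1, PSMG2 and PSMF1 it did.

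Against middle-aged ovaries, 1 member was higher and 5 were lower in old ovaries at an unadjusted p under 0.05 from limma. The higher one was PSMB10, and the background was 3.67% of genes higher and 7.61% lower. Called shares were 0% of genes for higher and 0.0708% for lower values, with 0 members. The median log2 fold change of the members was 0.00, 51 estimates (91.1%) were under 1.5-fold against 87.1% of genes, and 31 intervals (55.4%) lay within it against 44% of genes. The 5 lower members were all UBE2 genes, namely UBE2T (-1.15), UBE2K (-2.25), UBE2E1 (-0.37), UBE2N (-0.37) and UBE2E3 (-0.28).

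Old ovaries against the other 6 gave 3 higher and 7 lower members at the same level, beside 6.73% and 11.9% of genes, and 0 called members beside 0% and 0.241% of genes. UBE2K, UBE2N and UBE2T were the 3 members whose old values all lay below the other 6 (5.36%), against 6.98% of genes, and no member lay wholly above (0%), against 2.77% of genes. Without old monkey 3 these counts were 5 below and 5 above, and without old monkey 1 the members wholly below numbered 13. Shares over all genes were not computed for these settings, in which groups separate more easily. In this comparison 50 estimates (89.3%) were under 1.5-fold against 85.5% of genes, and 33 intervals (58.9%) lay within it against 49% of genes.

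Between middle-aged and young ovaries no member was called, beside 0% of genes in either direction, and no member passed an unadjusted p of 0.05, beside 1.43% of genes higher and 1.91% lower. The median log2 fold change was -0.07, and all 56 estimates were under 1.5-fold, as were those of 94.2% of genes. Intervals within 1.5-fold were reached by 33 members (58.9%), against 50.1% of genes. The 4 comparisons share arrays, so their values are not independent.

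Other genes of the pathway were taken from lists of E1 enzymes, further E2 enzymes, proteasome-associated factors, transcription factors of proteasome genes, the anaphase-promoting complex and class I presentation. Of 69 genes, 49 were measured. None was called between old and young ovaries, beside 0.0283% of all genes called higher and 0.276% lower. At an unadjusted p under 0.05, 5 were higher and 7 lower, near the 6.8% and 12% of all genes. USP14, a deubiquitinase that sits on the 19S cap, had 1197, 2328 and 2225 in young ovaries, 3908, 3669 and 8211 in middle-aged ovaries, and 6837, 4711 and 11900.1 in old ovaries. All 3 old values exceeded all 3 young values and overlapped with the middle-aged ones (log2 fold change 1.98, 95% interval 0.98 to 2.98, adjusted p = 0.129). NFE2L1, the transcription factor that restores proteasome gene expression when the proteasome is inhibited, had 759, 707 and 826 in young ovaries, 823, 803 and 775 in middle-aged ovaries, and 1104, 1206 and 916 in old ovaries. Each old value was above the other 6 arrays (log2 fold change 0.49, 95% interval 0.20 to 0.78, adjusted p = 0.172).

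The log2 estimates were -0.62 for NGLY1, the glycanase that processes NFE2L1 (adjusted p = 0.243), and -0.47 for ECPAS, a scaffold protein that binds the proteasome (adjusted p = 0.229). ATG7, the E1 of autophagy conjugation, had -0.75 (adjusted p = 0.273), and CDC16, a scaffold of the anaphase-promoting complex, -0.39 (adjusted p = 0.298). UBA1, the main E1 of ubiquitin, was named after its values had been seen and had 976, 1023 and 921 in young ovaries, 1109.8, 884 and 882 in middle-aged ovaries, and 1533, 964 and 782 in old ovaries. Old monkey 1 was highest and old monkey 3 lowest for this gene (log2 fold change 0.11, 95% interval -0.42 to 0.64). The summed intensity of the 6 measured E1 genes, UBA1 included, had the reverse order. It was 8723.5, 9138.9 and 9839.8 in old monkeys 1, 2 and 3.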

How the data were processed

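Per the labels, ovarian RNA was biotin-labelled and hybridized to 1-colour Affymetrix arrays, and the authors summarised them with RMA (version not given in the sources used here). The paper's methods instead describe LOWESS normalization with dye reversal, and the labels were followed here. The deposited values are linear intensity values, 1 per probe set. Detection calls were not used here, so signal over background was not assessed, and the 3 arrays per group limit the precision.

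The deposited intensity values were taken to log2 after 99 control probe sets of 52865 in all were left out. The limma package (version 3.58.1, R version 4.3.3) fitted a mean for each age group over 9 arrays, with empirical Bayes variances and Benjamini-Hochberg adjustment over 52766 probe sets. The 4 comparisons were old with young, with middle-aged and with the other 6 arrays, and middle-aged with young. Probe sets with several symbols were not used to represent a gene. Members matched RefSeq by Entrez gene number in 55 of 56 cases.

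The members, gene lists and role classes were chosen with earlier results of these data known. The brightest probe set was settled by mean intensity after a first look by mean log2 value. Genes given in full are called members, the 5 lowest p-values in each direction and comparison, the catalytic subunits with PSME and PSMF genes, the most variable member of each role, and up to 3 genes per outside list. Alternatives were array centring, quantile normalization, a filter on dim probe sets, trended variances, array weights, no fold minimum, averaged probe sets, fits of the compared groups alone, a replicate block, SAM, and leaving out arrays. Ratios of catalytic subunits were compared by an exact permutation test. Methods were tested on simulated data.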

Additional observations from a re-analysis of the deposited data

How the results depend on the processing

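No member was called under any alternative, SAM included. For SAM this says little, since it made at most 368 calls over the whole array in any comparison. The lowest adjusted p of the 30 genes given in full was 0.058 under any alternative, for UBE2T in old against the other 6 arrays with the replicate block. With 1 array left out, the members at an unadjusted p under 0.05 numbered 0 to 5 higher and 3 to 10 lower for old against young, 0 to 4 and 1 to 6 for old against middle-aged, 0 to 1 and 0 to 1 for middle-aged against young, and 1 to 7 and 4 to 9 for old against the other 6. Intervals within 1.5-fold were then 13 to 23, 19 to 32, 18 to 39 and 22 to 34 members in the same order of comparisons. Non-overlapping members were 3 to 9 above and 7 to 18 below for old against young, and 0 to 5 and 3 to 13 for old against the other 6. Old against middle-aged had 0 higher without middle-aged monkey 1 or 3, 4 higher and 2 lower without old monkey 3, 1 lower without middle-aged monkey 2, and 19 and 20 intervals within 1.5-fold without middle-aged monkey 1 and old monkey 2. Middle-aged against young had 20 and 18 such intervals without middle-aged monkeys 1 and 2. Old against the other 6 had 7 higher and 4 lower without old monkey 3, and 1 higher without old monkey 1. The log2 ratio of PSMB10 to PSMB7 differed by 1.03 to 1.49 between old ovaries and the other 6 with 1 array left out, with an adjusted p above 0.05 without young monkey 1 or 2, middle-aged monkey 1 or 3, or any one old monkey (0.0714 by exact permutation in each), and by 1.62 without the arrays numbered 3 (exact permutation, adjusted p = 0.133). With an old array left out, its unadjusted p was the smallest that the remaining arrays allow. Leaving out arrays can only add separated groups, by construction, and shares over all genes were not computed for these settings. Intervals could widen or narrow, as those within 1.5-fold for middle-aged against young rose to 39 at most from 33 with all arrays.

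The arrays numbered 3 were left out together after their labelling controls had been seen. These controls stood at 0.77 in old, 0.62 in young and -0.22 in middle-aged monkey 3. Without these arrays the lower members were 4 and the intervals within 1.5-fold 15 for old against young, with 13 members wholly above. Old against middle-aged then had 3 higher, 2 lower and 17 within the interval, and middle-aged against young had 21 within it. Against the other 6, 5 members then lay wholly above and 8 below. No share over all genes was computed without the arrays numbered 3. Old against middle-aged gave 2 higher members with array weights and 2 with averaged probe sets, and 3 lower with trended variances. Middle-aged against young gave 1 higher and 1 lower when the compared groups were fitted alone, and 1 lower with array weights. Old against the other 6 had 1 member above with averaged probe sets and 5 below with quantile normalization. The median proteasome gene stood 0.60 higher in old monkey 1 than in old monkey 3, and 0.36 higher with averaged probe sets. The cause of these shifts was not tested. The dim filter left out PSMB11 and UBE2U.

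Replicate numbers were not taken to pair the monkeys, since the labels state no pairing. Of 9 same-numbered pairs across groups, 5 had a correlation of deviations above 0.1, over a range of -0.02 to 0.41. Their own number was the best match for 5 of 9 arrays. The arrays numbered 3 went together, with 0.252, 0.355 and 0.41 among themselves and -0.42 to -0.03 with arrays of other numbers. What they share was not tested. With the replicate block, 2 members were higher and 7 lower for old against young, 1 and 5 for old against middle-aged, 0 and 1 for middle-aged against young, and 2 and 6 for old against the other 6, with 0 called.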

Other observations

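PSMC3IP, a partner of meiotic recombinases that is named for its binding to PSMC3 and is no proteasome subunit, was kept apart from the 56 genes although its symbol begins alike. The brightest of its 8 probe sets read 1224, 874 and 959 in young ovaries, 742, 1213 and 1167 in middle-aged ovaries, and 1830.0, 1133 and 1202 in old ovaries, with overlap between all groups and an estimate of 0.43 on the log2 scale for old against young (adjusted p = 0.505). Of 8 probe sets that carry a symbol of this kind together with others and name no gene here, the one annotated to both PSMB10 and BEX4 had a log2 fold change of 0.04, and the brightest one annotated to PSMD4 and PIP5K1A had -0.10.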
